A study of Mus musculus with 9 samples.

Results

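Nes, Gfap and Vim encode nestin, glial fibrillary acidic protein (GFAP) and vimentin, the intermediate filament proteins by which neural stem and precursor cells and astrocytes are commonly recognised. The members were the rows of the deposited table whose Ensembl identifiers carry these symbols in GENCODE M21, and all 3 were found among 14477 genes. The libraries came from cells named as adult neural precursor cells. They were taken from 2 dissected neurogenic regions, the hippocampal dentate gyrus (DG, n = 5) and the subventricular zone beside the lateral ventricle (SVZ, n = 4). All mice were of the transgenic strain B6.Cg-Tg(Nes-EGFP)1Yamm, in which Nes regulatory sequence drives green fluorescent protein, were untreated and lived in standard housing. Cells were sorted on that fluorescence. The labels give neither age nor sex, and they do not say whether a library came from 1 animal or from a pool. The p-values therefore set a difference only against the variation among these libraries, which may be technical in part. The reporter was part of how the cells were chosen in both regions, so the presence of Nes is not a finding. The sort may also have shaped the level of Nes in each region, and its part in the difference between the regions was not tested.

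Intermediate filaments are rope-like polymers that give a cell its mechanical strength. Vimentin and GFAP can each build a filament, while nestin does not assemble alone and joins filaments of vimentin. In the adult brain, GFAP is typical of astrocytes and of the radial, slowly dividing stem cells of both neurogenic regions. Vimentin is found in those stem cells and also in ependymal cells, endothelial cells, pericytes and fibroblasts. Nestin is found in stem and early precursor cells, and also in some cells of the vessel wall.

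Nes (ENSMUSG00000004891) lies on chromosome 3 from 87971078 to 87980451 on the plus strand, and its principal transcript has 4 exons over 6126 bases. Gfap (ENSMUSG00000020932) lies on chromosome 11 from 102887336 to 102900912 on the minus strand, with 9 exons and 2648 bases. Vim (ENSMUSG00000026728) lies on chromosome 2 from 13573927 to 13582826 on the plus strand, with 9 exons and 2193 bases. Coordinates are those of GENCODE M21 on GRCm38, the assembly called mm10 in the submitters' processing notes. No exon of the 3 genes overlaps an exon of another annotated gene, so counting without strand adds no reads of an annotated gene on the other strand. The start-site windows of Nes and Gfap are shown because these 2 genes changed in opposite directions. Each window runs from 250 bases before to 30 bases after the start site that RefSeq gives on GRCm38.p6, 5′ to 3′ on the strand of the gene, with motif matches in capitals. They are chr3:87970843-87971122 on the plus strand for Nes and chr11:102897171-102897450 on the minus strand for Gfap. The corresponding window of Vim lies inside the first exon of its principal GENCODE transcript and is not shown.
Nes: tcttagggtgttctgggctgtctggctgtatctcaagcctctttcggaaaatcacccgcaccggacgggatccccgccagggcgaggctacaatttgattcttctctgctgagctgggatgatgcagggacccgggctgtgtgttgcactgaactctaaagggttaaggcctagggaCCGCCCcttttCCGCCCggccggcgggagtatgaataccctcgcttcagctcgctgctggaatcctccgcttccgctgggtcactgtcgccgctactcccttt
Gfap: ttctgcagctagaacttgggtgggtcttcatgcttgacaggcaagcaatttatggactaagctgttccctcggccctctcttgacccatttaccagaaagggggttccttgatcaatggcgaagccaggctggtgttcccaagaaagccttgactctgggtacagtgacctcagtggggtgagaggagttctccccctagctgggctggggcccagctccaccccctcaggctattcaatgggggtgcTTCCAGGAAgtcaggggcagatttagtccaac

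Both strands were searched for a core promoter box read as TATAAA, for the GC box read as GGGCGG, for the box read as CCAAT, for the STAT motif TTCCNGGAA, the POU octamer ATGCAAAT, the SOX motif ACAAAG and the AP-1 motif TGANTCA, all chosen after the windows had been seen. The Nes window held 2 GC boxes on the other strand, at bases 178 to 183 and 189 to 194, a motif present in 34.7% of 32851 promoter windows of this length. The Gfap window held 1 STAT match, TTCCAGGAA, at bases 249 to 257, a motif present in 1.07% of windows. No match overlapped another, and the other motifs had none in these windows. The matches describe letters in a window and were not linked to the expression values. GENCODE starts the principal Gfap transcript 69 bases downstream of the RefSeq start.

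Reads over the table totalled 31126803 to 41164044 per library. Levels are given as CPM, reads scaled to the library total, or as log2 CPM with a prior count of 1 read as deposited. Fold changes are DG minus SVZ on that log2 scale with their standard error (SE), and adjusted p-values are from limma over all genes. At an adjusted p under 0.05, 66.6% of all genes were called, 32.9% as DG-high and 33.7% as SVZ-high, and the median log2 fold change was -0.07. Every member had at least 861 reads in every library, so the 95% counting interval of its lowest library was within 6.68% of the value. The identity of the sorted cells was checked with 10 marker lists. Neuroblast and proliferation markers were higher in SVZ for 10 of 10 genes each. Astroglial (14 of 15), endothelial (12 of 12), pericyte and smooth muscle (12 of 12), fibroblast (9 of 9) and oligodendrocyte precursor (8 of 8) markers were higher in DG. These lists are not independent, since Pdgfra stands in the fibroblast and the oligodendrocyte precursor list, and Cspg4 in the latter and the pericyte list. Of 8 mature neuron markers 3 were DG-high and 1 SVZ-high, and of 9 microglial markers 2 were SVZ-high. No marker of any list was without reads in either group. In DG, pericyte and smooth muscle markers summed to 5686 to 11670 CPM and neuroblast markers to 6221 to 9113 CPM. By these sums the DG libraries did not hold RNA of neural precursor cells alone.

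Gfap was 18.0-fold higher in DG, Nes was 1.93-fold higher in SVZ and Vim did not pass the test. That 2 of 3 genes were called is near the 66.6% of all genes. In bulk samples of sorted cells, more cells of a type and more RNA per cell cannot be told apart, for these or any other genes below.

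**Figure D1:**
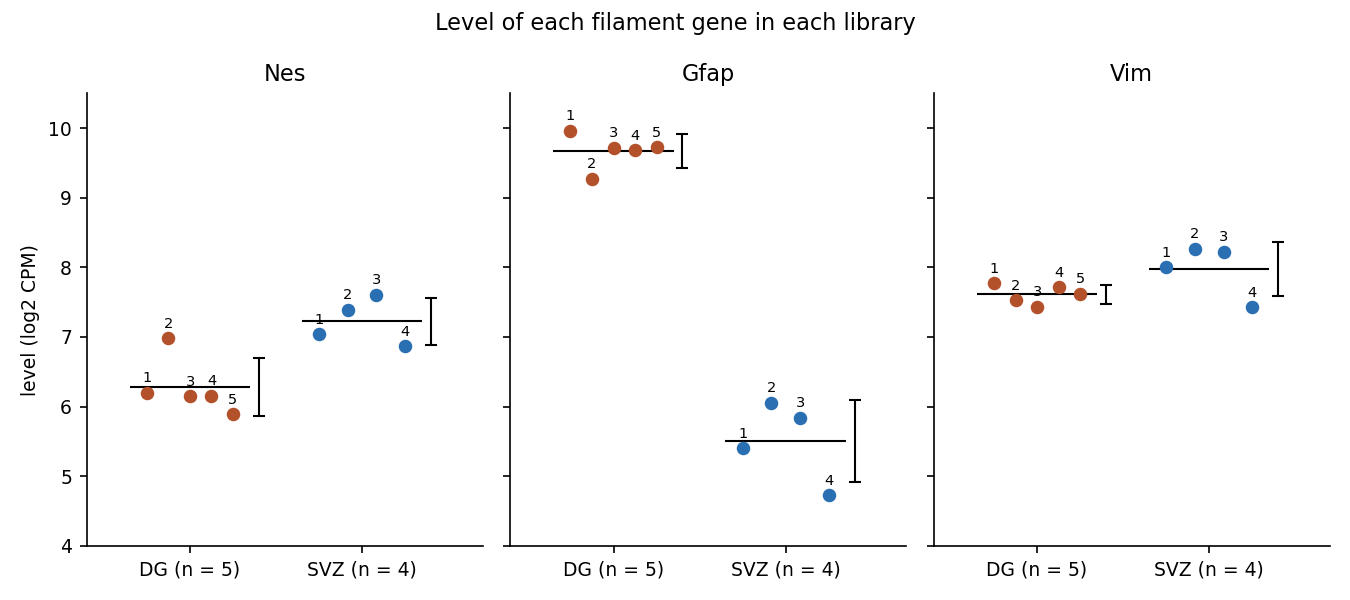
Level of Nes, Gfap and Vim (log2 CPM) in each DG library (n = 5) and SVZ library (n = 4); points carry the replicate number, horizontal lines are group means and bars are ± 1 SD. Gfap lies at 9.27 to 9.97 in DG and at 4.73 to 6.05 in SVZ, whereas the groups overlap for Nes through DG 2 and for Vim through SVZ 4.

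For Gfap, the DG libraries 1 to 5 held 1000.2, 618.7, 842.1, 820.8 and 849.3 CPM. The SVZ libraries 1 to 4 held 42.1, 66.4, 57.3 and 26.5 CPM. Every DG library was above every SVZ library, DG 2 being the lowest of its group and SVZ 4 the lowest of the other. The means were 9.67 ± 0.25 (SD, n = 5) and 5.51 ± 0.59 (SD, n = 4) log2 CPM, a log2 fold change of 4.17 (SE 0.24, limma adjusted p = 1.15e-07). Of all genes, 3.56% had as high a fold change, and 29.7% had all DG libraries above all of SVZ. Of all genes, 4.85% had as high a mean level over the 9 libraries.

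The rise of Gfap stood beside a rise of other astroglial genes. The summed level of the 15 astroglial markers was 22100 to 33740 CPM in DG and 2854 to 5725 CPM in SVZ. Within a region the order of libraries matched only in part. DG 2 was the lowest of DG and SVZ 2 the highest of SVZ for both Gfap and this sum. DG 1 had the highest Gfap at a sum of 25470 CPM, below the 33740 CPM of DG 4. SVZ 4 had the lowest Gfap at a sum of 4963 CPM, above the 2854 CPM of SVZ 1. Of these markers, 14 had a smaller fold change than Gfap and 1, Hopx (5.50), a larger one. Sox9, a transcription factor of the glial lineage, had the smallest (0.31), with an adjusted p of 0.0818 that fell to 0.0264 without DG 1 and 0.0399 without DG 2. Hopx, a gene of quiescent radial stem cells, had 4389 reads over the DG libraries and 66 over those of SVZ. Measured against the list, Gfap stood 0.91 ± 0.23 (SD, n = 5) log2 units above the mean of the astroglial markers in DG and at -0.97 ± 0.56 (SD, n = 4) relative to it in SVZ. The part of astroglial cell number in the difference of Gfap was not tested.

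For Nes, the DG libraries 1 to 5 held 73.5, 126.7, 70.8, 71.4 and 59.2 CPM, and the SVZ libraries 1 to 4 held 131.7, 167.8, 195.2 and 116.7 CPM. DG 2 was above SVZ 4, and the other 4 DG libraries were below every SVZ library. The means were 6.28 ± 0.42 (SD, n = 5) and 7.23 ± 0.34 (SD, n = 4) log2 CPM, a log2 fold change of -0.95 (SE 0.22, limma adjusted p = 0.00238). Of all genes, 13.8% had as low a fold change. Without DG 2 the log2 fold change was -1.13 (limma adjusted p = 0.000149).

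In DG 2, the library that overlapped, the summed neuroblast and pericyte markers were also the highest of the DG libraries. The summed astroglial (22100 CPM), proliferation (971.9 CPM), microglial (257.8 CPM) and mature neuron (212 CPM) markers of DG 2 were the lowest of DG. The neuroblast markers of DG 2 summed to 9113 CPM, against 6221 to 6645 CPM in the other DG libraries and 21600 to 25810 CPM in SVZ. SVZ 4, with the lowest Nes of its group, had the highest neuroblast sum, 25810 CPM. Pericyte and smooth muscle markers, from cells of the vessel wall, summed in DG 2 to 11670 CPM against 5686 to 10730 CPM in the other DG libraries. As a mean over these markers, DG 1 (8.51 log2 CPM) was above DG 2 (8.34 log2 CPM). Relative to the mean of the other DG libraries, Nes was higher in DG 2 by 0.89 and Gfap differed by -0.50 and Vim by -0.11 log2 units. The part of any of these cell types in the level of Nes in DG 2 was not tested. Among markers, the fold change of Nes was closer to zero than that of all 10 proliferation genes, which ranged from -2.21 to -1.15, and of 9 of the 10 neuroblast genes, the exception being Igfbpl1 (-0.67, a call lost without SVZ 1 at an adjusted p of 0.0517).

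For Vim, the DG libraries 1 to 5 held 218.5, 184.7, 172.7, 209.9 and 197.3 CPM, and the SVZ libraries 1 to 4 held 256.2, 308.2, 299.1 and 172.5 CPM. SVZ 1 to 3 were above every DG library, and SVZ 4 was level with the lowest of them, DG 3, within counting error. The means were 7.61 ± 0.14 (SD, n = 5) and 7.98 ± 0.39 (SD, n = 4) log2 CPM, a log2 fold change of -0.37 (SE 0.16), which missed the threshold (limma adjusted p = 0.0611). Without SVZ 4 it was -0.55 with an adjusted p of 0.00116, so whether Vim was called depended on this 1 library. Vim was abundant in both regions, with 5.13% of genes at as high a mean level.

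Markers of the vessel and connective tissue cells that are known to hold vimentin were higher in DG, whereas Vim was not called. The summed pericyte and smooth muscle markers were 5686 to 11670 CPM in DG and 74.9 to 188.1 CPM in SVZ, the endothelial markers 1203 to 2288 against 10.9 to 68.4 CPM, and the fibroblast markers 897.1 to 1682 against 37.9 to 105.3 CPM. The ependymal markers, of which 11 of 12 were higher in SVZ, summed to 63.1 to 89.8 CPM in DG and 153.5 to 403.9 CPM in SVZ, with SVZ 4 the lowest of its group. The part of any of these cell types in the level of Vim was not tested.

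SVZ 4 was the lowest SVZ library for all 3 genes, at -0.48 for Nes, -1.04 for Gfap and -0.73 for Vim relative to the mean of the other SVZ libraries. Its microglial markers were the highest of the 9 libraries, at 1113 CPM against 218 to 774.6 CPM in the other SVZ libraries. The SDs of Nes, Gfap and Vim in SVZ (0.34, 0.59 and 0.39) were above the median SD of the 9762 genes averaging 3 log2 CPM or more (0.20). In DG, Vim (0.14) was below that median, which was also 0.20, and Nes (0.42) and Gfap (0.25) were above it.

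The balance of the 3 genes within a library did not depend on how libraries are scaled. Per length of transcript, Gfap was the most abundant of the 3 in every DG library and Vim in every SVZ library. In DG, Gfap stood at 312 ± 51.4 (SD, n = 5) CPM per kb, Vim at 89.7 ± 8.43 and Nes at 13.1 ± 4.33, and these 3 ranges did not overlap. In SVZ, Vim stood at 118.1 ± 28.3 (SD, n = 4) CPM per kb, Nes at 24.9 ± 5.79 and Gfap at 18.2 ± 6.63, and the ranges of Nes and Gfap overlapped across libraries although Nes was above Gfap within each. Their summed level per length was 338.5 to 489.3 CPM per kb in DG and 107.7 to 193 in SVZ.

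**Figure D2:**
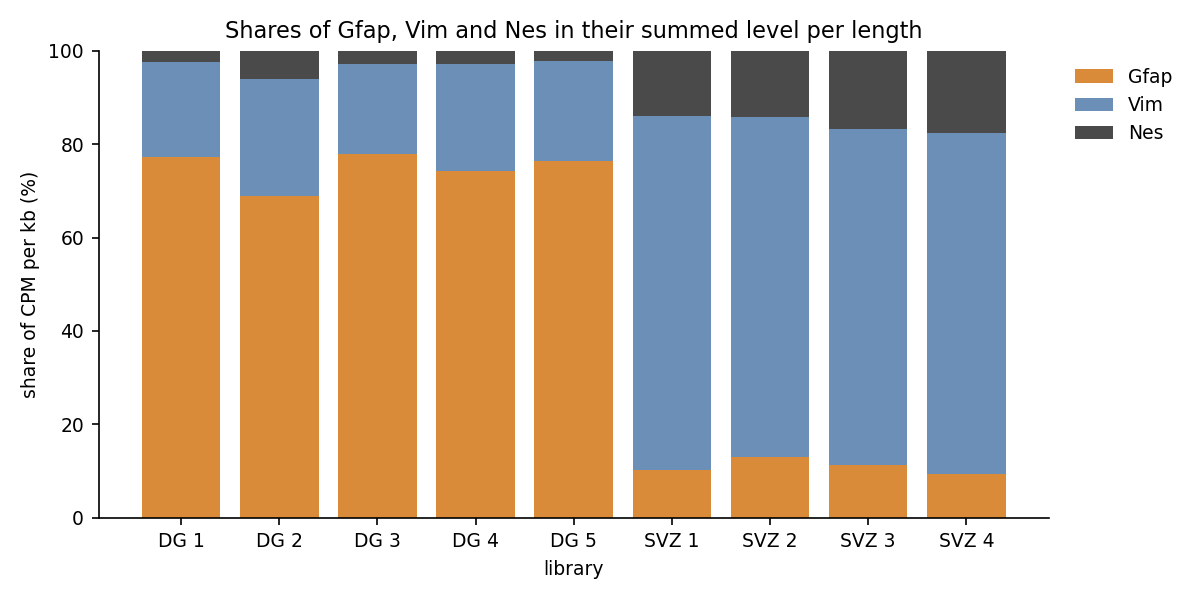
Shares of Gfap, Vim and Nes in the sum of their levels per length (CPM per kb of principal transcript, %), 1 bar per library. Gfap takes 69.0 to 77.9% in the DG libraries and 9.3 to 13.0% in the SVZ libraries, where Vim takes 71.8 to 75.7%.

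As shares of that sum, Gfap made up 74.9% ± 3.6 (SD, n = 5) in DG and 11.0% ± 1.6 (SD, n = 4) in SVZ. Vim made up 21.8% ± 2.2 and 73.4% ± 1.7, and Nes 3.3% ± 1.6 and 15.6% ± 1.9, with the same numbers of libraries. The log2 ratio of Gfap to Vim was 2.06 ± 0.21 in DG against -2.48 ± 0.22 in SVZ, which is 23.2-fold (exact two-sided permutation test, p = 0.0159, adjusted over 3 ratios p = 0.0238). That of Nes to Gfap was -3.40 ± 0.63 and 1.72 ± 0.33, a 34.8-fold difference (exact permutation p = 0.0159, adjusted p = 0.0238). For both ratios no library of 1 group reached the other, and 0.0159 is the smallest p that 5 against 4 libraries can give. The log2 ratio of Nes to Vim was -1.34 ± 0.47 in DG and -0.75 ± 0.19 in SVZ, and their difference of -0.58 did not pass (exact permutation p = 0.0952, adjusted p = 0.0952). DG 2 had a Nes to Vim ratio of -0.54, above every SVZ library, and the other DG libraries were at -1.74 to -1.29, below every one. Without DG 2 the difference was -0.78 (exact permutation test, adjusted p = 0.0286).

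Other intermediate filament genes were split as well. Of 25 listed genes 14 were measured, 6 of them DG-high, 4 SVZ-high and 4 not called, against 32.9% and 33.7% of all genes. In 10 of the 14, the groups did not overlap, against 58% of all genes. The median log2 fold change was 0.44, against -0.07 over all genes, and was -0.09 when genes with a mean under 3 log2 CPM were left out.

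**Figure D3:**
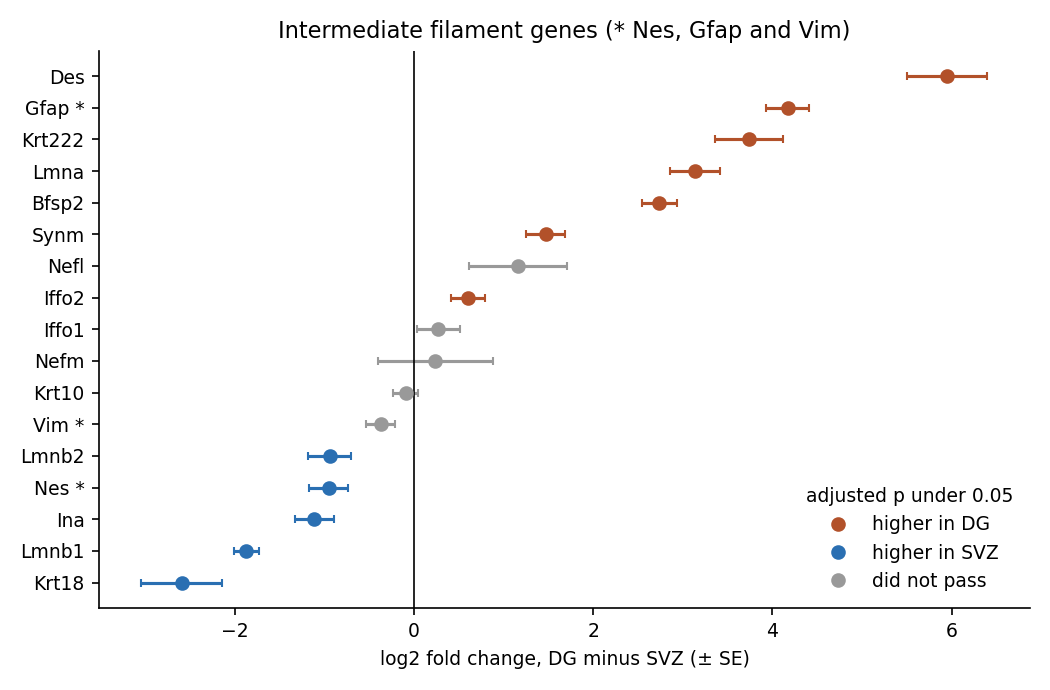
Log2 fold change (DG minus SVZ) with its SE for Nes, Gfap and Vim (marked by an asterisk) and 14 other measured intermediate filament genes; colour shows the call at an adjusted p under 0.05. Values run from -2.59 for Krt18 to 5.95 for Des, with Gfap second from the top and Vim among the genes that did not pass.

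Des, which encodes desmin, the filament of muscle cells and of some pericytes, had the largest difference. It stood at 3.77 ± 0.65 (SD, n = 5) log2 CPM in DG and -2.19 ± 0.88 (SD, n = 4) in SVZ (log2 fold change 5.95, SE 0.45, limma adjusted p = 7.31e-07), with 28 reads over the SVZ libraries. It moved beside the pericyte and smooth muscle markers named above, whose part was not tested. Synm, which encodes synemin, a partner that joins filaments of desmin, vimentin and GFAP, was higher in DG by 1.47 (adjusted p = 0.000129). It shares exons with Ttc23 on the opposite strand. Bfsp2, known as a beaded filament gene of the eye lens, was higher in DG by 2.74 (means of 4.72 and 1.97 log2 CPM). Krt222, a keratin-like gene, was higher by 3.74, with 870 reads over the DG libraries and 45 over those of SVZ. Iffo2 was higher by 0.60.

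Neuronal filament genes differed among themselves. Ina, which encodes internexin, a filament of developing neurons, was higher in SVZ (-1.11, adjusted p = 0.000892), and it shares exons with Nt5c2. Nefl and Nefm, the light and medium neurofilament subunits, were not called (1.16 and 0.24, adjusted p = 0.0829 and 0.753). Nefl passed without DG 2 (adjusted p = 0.0412) or SVZ 2 (0.0466), and Nefm changed sign without DG 3 or SVZ 4. Both were highest in DG 3, Nefl at 5.28 log2 CPM against 2.40 to 3.65 in the other DG libraries. DG 3 also held 844 CPM of summed mature neuron markers, a list that includes Nefl, against 212 to 275.9 CPM in the other DG libraries. Nefl and Nefm overlap on opposite strands, so their reads cannot be told apart with certainty.

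Nuclear lamins, the filament proteins that line the nuclear envelope, divided by type. Lmna, the A-type lamin gene, averaged 5.70 ± 0.51 in DG against 2.57 ± 0.49 in SVZ (3.14, SE 0.28, adjusted p = 3.01e-06). The B-type genes Lmnb1 and Lmnb2 were higher in SVZ, at -1.87 (adjusted p = 6.94e-07) and -0.94 (adjusted p = 0.00461). For all of the lamin genes the groups did not overlap. Krt18, a keratin of simple epithelia, was higher in SVZ (-2.59, with 523 SVZ and 112 DG reads). Krt10 (-0.09) and Iffo1 (0.27) did not pass the test.

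Genes that act on filaments were described by role. Of the other genes named, Hopx, Iffo1, Plec, Cryab, Padi2, Pou2f1, Stat3, Nfia, Zeb1, Trim46 and Ramp2 share exon sequence with another gene of the table, Iffo1 with Gapdh among them, and their reads are uncertain to that extent. Linker proteins tie filaments to actin, microtubules, junctions or the nucleus. Their 7 measured genes fell into 3 DG-high and 4 SVZ-high ones, against 32.9% and 33.7% of all genes. The median was -0.54, and -0.05 when genes with a mean under 3 log2 CPM were left out. Plec, which encodes plectin, the main linker of vimentin, and Dst, a related linker, were higher in DG by 0.74 and 0.45. The call of Plec was lost without SVZ 4 (adjusted p = 0.0608), and that of Dst without DG 1, DG 3, SVZ 1, SVZ 2 or SVZ 3 (adjusted p = 0.0647 to 0.125). Dsp, the desmosomal linker desmoplakin, was higher by 3.67, with DG 3 at 4.61 and the other DG libraries at 0.59 to 1.93. Flna, an actin crosslinker that binds vimentin, and Macf1, a large linker of actin and microtubules, were higher in SVZ (-0.54 and -0.68), as was Syne3, which ties filaments to the nucleus (-1.59).

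**Figure D4:**
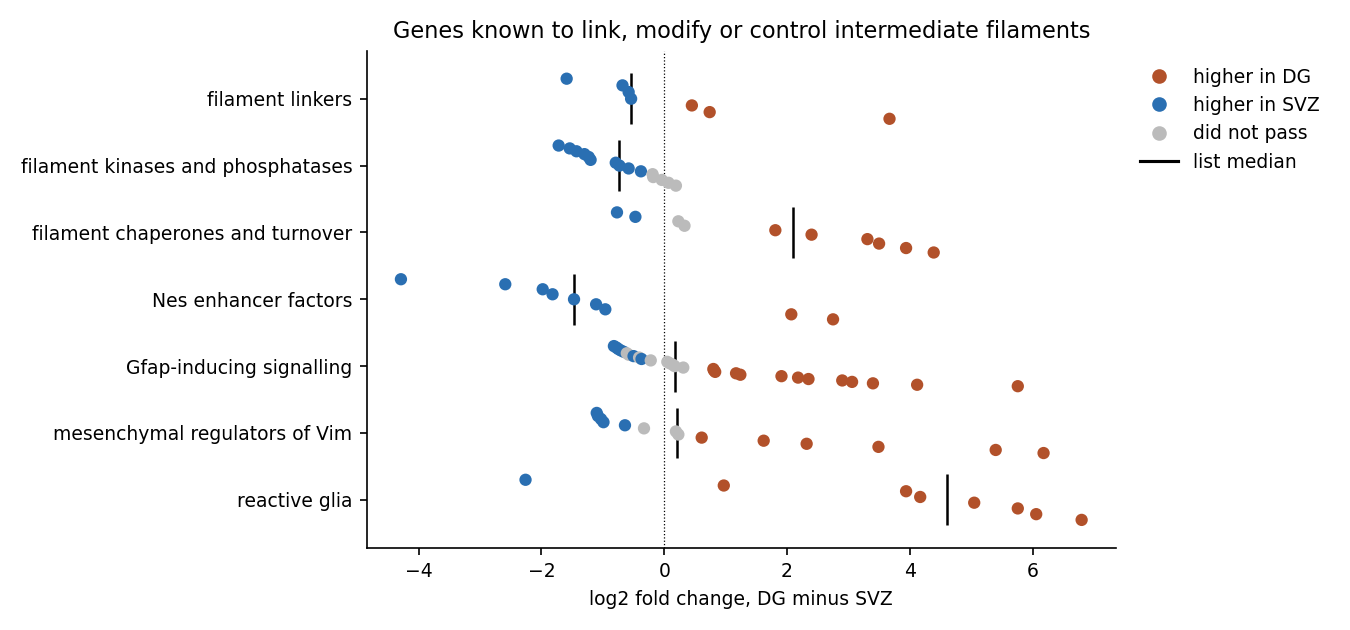
Log2 fold change (DG minus SVZ) of each measured gene in 7 lists of genes known to link, modify or control intermediate filaments; 1 point per gene, colour by call at an adjusted p under 0.05, vertical bars at the list median. The kinase and phosphatase list has no gene higher in DG, and the chaperone and turnover list and the reactive glia list have medians of 2.11 and 4.61; without genes under 3 log2 CPM the first is 1.07.

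Kinases that phosphorylate filament proteins, and phosphatases, included 10 SVZ-high genes among 15 measured, and 5 were not called (median -0.73), so the share called was that of all genes, 66.6%, of which 33.7% were SVZ-high. None was higher in DG by limma (0 also at an unadjusted p under 0.05, and 0 with voom weights). Cdk1, which acts on nestin and vimentin during mitosis, differed by -1.54 (adjusted p = 1.1e-05). This list shares 3 genes, Cdk1, Ccnb1 and Aurkb, with the proliferation markers. Cdk5r1, the activator of the nestin kinase Cdk5, differed by -1.72 (adjusted p = 9.17e-06), while Cdk5 itself was not called (-0.19, adjusted p = 0.111). Pak1, a kinase of vimentin, differed by -1.23.

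Chaperones and enzymes of filament turnover included 6 DG-high genes among 10 and 2 SVZ-high ones, against 32.9% and 33.7% of all genes. The median was 2.11, and 1.07 without genes under 3 log2 CPM. Cryab, a small heat shock protein that binds GFAP and vimentin filaments, averaged 7.83 ± 0.17 in DG against 5.43 ± 0.41 in SVZ (2.40, adjusted p = 5.78e-07). Padi2, which converts arginine to citrulline in proteins that include GFAP, was higher by 3.31, and Capn1, a protease subunit, by 4.39. Dnajb6, a chaperone gene, was higher in SVZ (-0.47).

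Transcription factors of the SOX and POU families bind the neural enhancer in the second intron of Nes. All 9 listed genes were measured, 7 of them SVZ-high and 2 DG-high (median -1.47), against 33.7% and 32.9% of all genes. Pou3f2 averaged 6.22 ± 0.33 in DG against 8.80 ± 0.17 in SVZ (-2.59, SE 0.16, adjusted p = 1.89e-07). Pou3f4 differed by -4.29, with DG 2 at 4.49 and the other DG libraries at 2.44 to 2.82 log2 CPM, and by -4.66 without DG 2. Sox2, a factor of neural stem cell maintenance, differed by -1.11, and Pou2f1 by -1.98. The members higher in DG, Sox3 (2.75) and Pou3f1 (2.07), were scarce, with 257 and 949 reads over the DG libraries. Sox11 is also a member of the neuroblast list, which was higher in SVZ as a whole.

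Gfap is known to be induced by cytokines of the interleukin-6 family through Stat3, and by bone morphogenetic proteins through SMAD factors, with nuclear factor I proteins and p300 as partners. The list of these routes also held genes of Notch signalling and Sox9. Of its 29 measured genes 13 were DG-high, 7 SVZ-high and 9 not called (median 0.17, and 0.10 to 0.31 when 1 library was left out), a share called near the 66.6% of all genes. Osmr, the oncostatin M receptor, averaged 5.76 ± 0.43 in DG against 0.00 ± 0.73 in SVZ (5.76, adjusted p = 1.21e-07), Lifr was higher by 2.35 and Il6st, their shared subunit gp130, by 1.91. Stat3 itself was higher in DG by 0.81 (adjusted p = 0.00933), with groups that overlapped. The ligand gene Bmp4 was higher in DG by 4.12 and the Notch effector gene Hes1 by 3.06. Smad4 (-0.82), Smad5 (-0.71) and the coactivator gene Crebbp (-0.66) were higher in SVZ, as was Ep300, which encodes p300 (-0.75). Nfia, a nuclear factor I gene, was abundant in both regions and was not called (0.14, adjusted p = 0.216). Of the other nuclear factor I genes, Nfib was higher in SVZ (-0.50), Nfic was higher in DG (0.80) and Nfix was not called (-0.22). Several of these genes are also known from vessel cells, whose markers were higher in DG, and the part of those cells was not tested.

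Regulators known to raise Vim in mesenchymal cells were divided. Of 14 measured, 6 were DG-high and 5 SVZ-high, against 32.9% and 33.7% of all genes, and 3 were not called. The median was 0.21, and 0.06 without SVZ 4, 0.45 without SVZ 3 or -0.07 without genes under 3 log2 CPM. Tgfb2, a ligand of the transforming growth factor beta family, was higher in DG by 3.49 and its receptor gene Tgfbr2 by 2.32. Snai2, a repressor of epithelial genes, had 478 reads over the DG libraries and 1 over those of SVZ. The related repressors Zeb1 and Zeb2 were higher in SVZ (-1.10 and -1.08), as was Smad2 (-1.03).

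Gfap and Vim are both known to rise in reactive astrocytes, and other genes of that state were listed. Of 11 listed genes 8 were measured, 7 of them DG-high and 1 SVZ-high (median 4.61), against 32.9% and 33.7% of all genes. Steap4 and Hspb1 stand in the table only through their DG libraries and Timp1 only through those of SVZ. The direction of such genes was in part fixed in advance. Hspb1 and Osmr also stand in lists above. S1pr3 (6.06) and Steap4 (6.80), which are also known from vessel cells, moved beside the pericyte markers, whose part was not tested. Timp1, an inhibitor of matrix proteases, was higher in SVZ (-2.26).

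Of 9464 genes that averaged 3 log2 CPM or more, leaving out clone, predicted-gene and pseudogene names, those with the most similar profile over the 9 libraries were named for each member. Similarity was the root mean square distance between profiles, each centred on its own mean, and is a description without a test, since the libraries share their region and sort. Nearest to Gfap were Pcsk6 (distance 0.26), Afap1l2 (0.29), Ramp2 (0.31), Calb2 (0.32) and Gpc5 (0.32), with log2 fold changes of 3.74 to 4.49. Calb2 encodes calretinin, a calcium-binding protein of immature granule neurons, and Ramp2 a receptor partner known from endothelial cells. Nearest to Nes were Trim46 (0.17), Actl6b (0.19), Rnf41 (0.20), Sh3yl1 (0.21) and Tra2a (0.21), with log2 fold changes of -1.11 to -0.80.

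Near to Vim were R3hcc1 (0.07), Ccdc124 (0.09), Eif4h (0.09) and Ranbp3 (0.10). In SVZ, the lowest library of each of these 4 was SVZ 4, as for Vim, at 5.84 against 6.25 to 6.57 log2 CPM for Ccdc124. Ccdc124 and Eif4h were not called with all libraries and passed the test without SVZ 4 (limma adjusted p = 0.0105 and 0.00226). The genes were picked for a profile like that of Vim, so their low SVZ 4 and these calls follow from the choice. They are not separate evidence about SVZ 4. Ranbp3 (-0.41, adjusted p = 0.0281) and R3hcc1 (-0.43, adjusted p = 0.0404) passed. Ranbp3 lost its call without DG 3, DG 4, SVZ 1, SVZ 2 or SVZ 3 (adjusted p up to 0.0903), and R3hcc1 without any 1 library other than DG 1 or SVZ 4 (up to 0.118).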

How the data were processed

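RNA of sorted cells was reverse transcribed from a tailed poly-dT primer with template switching, and the amplified cDNA was sheared into libraries, per the labels' protocols. These name no molecular identifiers and no step that marks strand, so intervals cover counting error only. STAR, edgeR and mm10 are named in the submitters' processing notes. Versions, counter and annotation were not given in the sources used here. Values were deposited by the authors as log2 CPM, and computing them from whole reads with a prior of 1 read, scaled to the library total, returned every value within 5.33e-14. Inverted, that formula gave whole reads (tolerance 0.001) for 100% of values, 1 read was worth 0.0243 to 0.0321 CPM, and every gene exceeded 1 CPM in at least 3 libraries. Genes under 1 CPM in all libraries of 1 group are there only through the other group, so their direction was in part fixed. They include Des, Krt222, Dsp, Capn1, Hspb1, Sox3, Lif, Snai2, Hopx and Steap4, low in SVZ, and Krt18 and Timp1, low in DG.

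The design set a count test for a table of raw counts and limma for log2 values. The table held log2 values, so the test was limma 3.58.1 in R 4.3.3, with a trend of variance on level and tissue as the only term, over all 14477 genes, with Benjamini-Hochberg adjusted p under 0.05. The fit was first tested on simulated reads. The 3 ratios were tested by exact two-sided permutation of the tissue labels, with 126 arrangements (scipy 1.17.1). GENCODE M21 gave symbols to 14433 identifiers and left 44 without. Lengths are those of the principal transcript. No library was a duplicate of another of its group, the chi-square of their reads being at least 19.39 for each degree of freedom.

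The members and gene lists were chosen with earlier results of these data known. Named genes were the members, the listed filament genes averaging 1 log2 CPM or more, the 3 genes per direction with the smallest adjusted p in each other list, the ends of marker lists and the 5 most similar profiles per member. Some genes that meet this rule are not reported here. Krt18, Krt222, Cdk5, Ccnb1, Aurkb, Sox2, Sox11, Hspb1, Lifr, Stat3, Bmp4 and Nfia fall outside this rule and were named after their values were seen. So were Ep300, Nfib, Nfic and Nfix, which are given for the main setting only. Alternatives were another scaling, prior counts of 5 and 0.25 reads, a filter at 3 log2 CPM, voom weights on the recovered reads, no trend, a replicate block and leaving out libraries.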

Additional observations from a re-analysis of the deposited data

Results flagged for a closer look

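In 152 groups of values tested, 12 held 1 library far from the others of its group, where chance gives about 1 in 20. Nes stood at 6.99 log2 CPM in DG 2 against 5.89 to 6.20 for the rest of DG, and the log2 ratio of Nes to Gfap at -2.29 against -3.84 to -3.52. Pou3f4, a factor of the Nes enhancer, stood at 4.49 in DG 2 against 2.44 to 2.82.

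Lmna stood at 4.84 in DG 5 against 5.72 to 6.07, and Lmnb1 at 2.59 in DG 5 against 2.23 to 2.29. R3hcc1 stood at 5.53 in DG 1 against 5.25 to 5.31, and Lifr at 7.70 in DG 3 against 6.87 to 6.99.

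In SVZ 4, Smad2 stood at 6.25 against 6.34 to 6.36 and Rnf41 at 7.50 against 7.88 to 7.95 in the other SVZ libraries. Snai2 stood at -4.07 in SVZ 4, the library with its single SVZ read, and the others were at -5.11, the value of no reads. Zeb1 stood at 8.95 in SVZ 1 against 8.44 to 8.49, and Sox2 at 6.40 against 6.09 to 6.14.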

How the results depend on the processing

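Nes and Gfap kept their direction and their call under each of the 17 settings run. Leaving out each library in turn gave -1.13 to -0.82 for Nes (adjusted p at most 0.00948), 3.91 to 4.35 for Gfap and -0.55 to -0.27 for Vim, which passed the test only without SVZ 4. Under the other settings, with all libraries, the adjusted p of Vim was 0.0599 to 0.127. The log2 ratios ranged over the same omissions from 4.46 to 4.62 (Gfap to Vim), -5.40 to -4.98 (Nes to Gfap) and -0.78 to -0.49 (Nes to Vim). With 3 SVZ libraries the adjusted p of Gfap to Vim and of Nes to Gfap was 0.0536 (exact permutation test), above the threshold. A smaller value was possible only if Nes to Vim also reached the smallest exact p, which it did not. A call lost there therefore says nothing about the stability of these ratios. Leaving out DG 2 and SVZ 1 together, chosen after the data had been seen, gave 4.57 and -5.42 (exact permutation test, adjusted p = 0.0571). It gave -1.19 for Nes, 4.23 for Gfap and -0.34 for Vim, with the same side of the threshold as before.

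Leaving out genes with a mean under 3 log2 CPM tests fewer genes. It lowered the count higher in DG from 4769 to 2938 over all genes, from 6 to 3 among other filament genes, from 7 to 4 among reactive glia genes and from 2 to 0 among Nes enhancer factors. The count higher in SVZ went from 4 to 2 among linkers and from 1 to 0 among reactive glia genes. The medians of other filament genes and of the regulators of Vim then changed sign, to -0.09 and -0.07, and those of linkers and of chaperone and turnover genes moved from -0.54 to -0.05 and from 2.11 to 1.07. Nefm, not called in any setting, ranged from -0.24 to 0.57 when 1 library was left out.

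The titles give both groups the numbers 1 to 4. The deviations of same-numbered libraries from their group means correlated at -0.173 to 0.00727, and no library correlated best with its own number. The labels do not say whether equal numbers mark a shared animal or sort. These correlations rest on few libraries and cannot decide it. With the replicate block, 4513 genes were DG-high and 4273 SVZ-high, Nes was -0.85, Gfap 4.15 and Vim -0.37. Among the named genes followed over the settings, the block ended the calls of Dst (0.48, adjusted p = 0.0642) and R3hcc1 (-0.41, adjusted p = 0.0775). Within 4 pairs no exact p can go below 0.125, and the ratios were 4.52 and -5.01 (permutation within the replicate block, adjusted p = 0.188).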
